A study of Mus musculus with 7 samples.

Results

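A set of 10 genes of the glycine cleavage system, serine synthesis and the folate pathway was followed through 2 T-cell leukemias of mice. They were Gldc, Amt, Gcsh, Shmt1, Shmt2, Mthfd2, Mthfd1l, Phgdh, Psat1 and Psph, and they were chosen by the log2 values of Gldc, which are high in the TEL-JAK2 leukemia, with the other 9 taken as enzymes of the same pathways. Every probe set annotated to exactly 1 of these symbols was taken, which gave 20 of 45037 probe sets on the arrays and covered 9 of the 10 genes. Amt, the aminomethyltransferase of the cleavage system, was not analysed here.

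RNA came from terminally ill C57Bl/6 mice and was read on 7 Affymetrix expression arrays. Bone marrow cells of ICN1 leukemia, which is driven by activated NOTCH1, a receptor of T-cell development, gave 3 arrays. Thymus cells of TEL-JAK2 leukemia, which is driven by a fusion that activates the kinase JAK2, gave 4. All were labelled leukemic cells, and the labels name no sorting step, promoter or age. Each leukemia was taken from 1 tissue, so oncogene and tissue cannot be told apart in any difference below. The labels do not state that the arrays of a group come from separate animals, and p-values then measure the spread between these samples, part of which may be technical. Sex-linked transcripts, given below, differed between arrays of each group, so the arrays of a group were not all repeats of 1 sample.

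Cells make serine from the glycolytic intermediate 3-phosphoglycerate through PHGDH, PSAT1 and PSPH in turn. Serine hydroxymethyltransferases, SHMT1 in the cytosol and SHMT2 in mitochondria, split serine into glycine and a one-carbon unit carried on tetrahydrofolate, and the MTHFD enzymes oxidize that unit to the formyl and formate forms used for purines. The glycine cleavage system uses up glycine rather than making it, and it too loads a one-carbon unit onto tetrahydrofolate. GLDC removes the carboxyl group of glycine, and the lipoylated carrier GCSH holds the remaining aminomethyl group. AMT passes its carbon to tetrahydrofolate, and DLD reoxidizes the carrier. Proliferating lymphoid cells are known for their demand on serine and one-carbon units.

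To show the start regions of the genes on which the results turn, the 250 bases before the RefSeq start site (build GRCm38.p6) are given for Gldc (chr19:30175442-30175691, minus strand), for Shmt1 (chr11:60811266-60811515, minus strand) and Shmt2 (chr10:127522445-127522694, minus strand), whose values were lower in TEL-JAK2, and for Phgdh (chr3:98339970-98340219, minus strand), whose values were not called different. Capitals mark matches to CCAAT (the CCAAT box) and the fixed letters of TTCNNNGAA (a STAT binding motif), each on either strand.
Gldc: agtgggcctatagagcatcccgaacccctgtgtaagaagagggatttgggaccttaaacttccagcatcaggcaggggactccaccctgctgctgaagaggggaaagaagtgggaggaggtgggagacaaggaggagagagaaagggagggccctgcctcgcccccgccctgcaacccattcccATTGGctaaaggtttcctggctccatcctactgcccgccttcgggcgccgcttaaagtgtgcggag
Shmt1: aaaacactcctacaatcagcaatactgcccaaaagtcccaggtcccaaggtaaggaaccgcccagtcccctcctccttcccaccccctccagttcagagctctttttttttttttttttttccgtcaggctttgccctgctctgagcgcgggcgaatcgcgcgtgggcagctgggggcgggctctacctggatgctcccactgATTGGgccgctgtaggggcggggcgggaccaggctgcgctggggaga
Shmt2: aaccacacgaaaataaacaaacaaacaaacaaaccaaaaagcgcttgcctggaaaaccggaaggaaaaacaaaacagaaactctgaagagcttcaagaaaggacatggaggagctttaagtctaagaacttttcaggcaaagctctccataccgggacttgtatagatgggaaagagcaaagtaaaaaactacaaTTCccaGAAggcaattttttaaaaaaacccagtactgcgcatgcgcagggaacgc
Phgdh: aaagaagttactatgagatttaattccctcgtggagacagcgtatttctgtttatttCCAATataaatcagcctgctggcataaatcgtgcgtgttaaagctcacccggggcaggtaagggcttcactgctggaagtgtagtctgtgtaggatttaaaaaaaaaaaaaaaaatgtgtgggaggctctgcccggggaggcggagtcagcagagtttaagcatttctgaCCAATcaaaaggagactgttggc
All 10 genes matched a RefSeq start region by symbol, Psat1 with 2 starts. The STAT motif stood in 1 of the 10 genes, Shmt2, from -55 to -47 relative to the start, and in 7.02% of 32851 mouse start regions of the same length. The Gldc region held no match to it. A CCAAT box stood in 8 of the 10 genes, Gldc included at -66 to -62, and in 33.8% of all regions. The other motifs searched, CACGTG (the E-box bound by MYC) and TGATGNAAN (bound by ATF4 with C/EBP partners), matched in 0 of the 10 genes and in 6.02% and 3.44% of all regions. The searched motifs did not overlap one another in the printed regions. A match describes letters only.

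Values are log2 expression per probe set, and each difference is TEL-JAK2 minus ICN1 with the standard error (SE) of a linear model fitted by limma to all probe sets. Calls required p under 0.05 after Benjamini-Hochberg adjustment for 45037 tests. Array medians were 5.44 to 5.5. T-lineage genes were bright in both groups: over 10 genes the mean level was 11.20 to 11.60 in ICN1 and 11.79 to 12.16 in TEL-JAK2. Of these 6 were higher in TEL-JAK2, Cd3d, Cd3g and Cd247 among them, and 1 was lower. Such lists used 1 probe set a gene, and over all genes 12.2% were lower and 11.9% higher. Erythroid genes stood at 10.86 to 11.12 in ICN1 and 5.79 to 6.02 in TEL-JAK2, with 10 of 12 lower. Of 11 monocyte and macrophage genes 5 were lower (Cd14, Csf1r, Mrc1, Vcam1 and Axl), with list levels of 8.89 to 10.25 against 6.39 to 8.66. The other 6 were not called, and Lyz2, the brightest of the list, went the other way (0.31). All 11 measured proliferation genes were lower in TEL-JAK2 (11.95 to 12.21 against 9.70 to 10.67). ICN1 replicates 1 and 2 held both Xist (11.51 and 11.78) and the Y-linked Eif2s3y (8.93 and 9.41). TEL-JAK2 replicate 4 held Eif2s3y (10.23) with little Xist (5.19), whereas the other TEL-JAK2 arrays held Xist only. In such bulk suspensions, fewer cells of a type and less RNA per cell cannot be told apart.

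Gldc, the glycine decarboxylase, was measured by 1 probe set, 1416049_at. It read 4.31, 4.29 and 4.57 in the ICN1 arrays, below the array medians. In TEL-JAK2 it read 10.70, 10.60, 10.49 and 10.46. The groups were separated by a wide gap, and the arrays of each lay close together. The ICN1 mean of 4.39 ± 0.16 (SD, n = 3) stood at the 31.4th percentile of all probe sets in that group. The TEL-JAK2 mean of 10.56 ± 0.11 (SD, n = 4) stood at the 94.7th percentile in the other. The difference was 6.17 ± 0.11, and it lay between 6.12 and 6.26 when any 1 array was left out. Since these values chose the genes, no test is attached to them, and nothing is read from their SE or range. Among markers of other thymus cells, 3 of 11 thymic epithelium genes were higher in TEL-JAK2 too, as against 11.9% of all genes. The mean levels of that list were 4.86 to 5.32 in ICN1 and 5.64 to 6.47 in TEL-JAK2. Epcam, an epithelial adhesion gene of that list, read 4.43 to 5.27 and 9.67 to 11.77. Foxn1, the defining factor of those cells, was below the array medians in both groups and differed by 0.33 (4.45 to 4.63 and 4.70 to 4.94, adjusted p = 0.0497). Aire, which drives self-antigen display in those cells, differed by 0.87 (5.35 to 5.42 and 5.84 to 6.97, adjusted p = 0.0476). The other 8 genes of the list were not called, with differences from -0.20 for Ccl25 and 0.04 for Psmb11 up to 2.34 for Cdh1. The part of such cells in the Gldc values was not tested. RMA, the method behind the deposited values, compresses a fold whose lower side is near background.

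**Figure D1:**
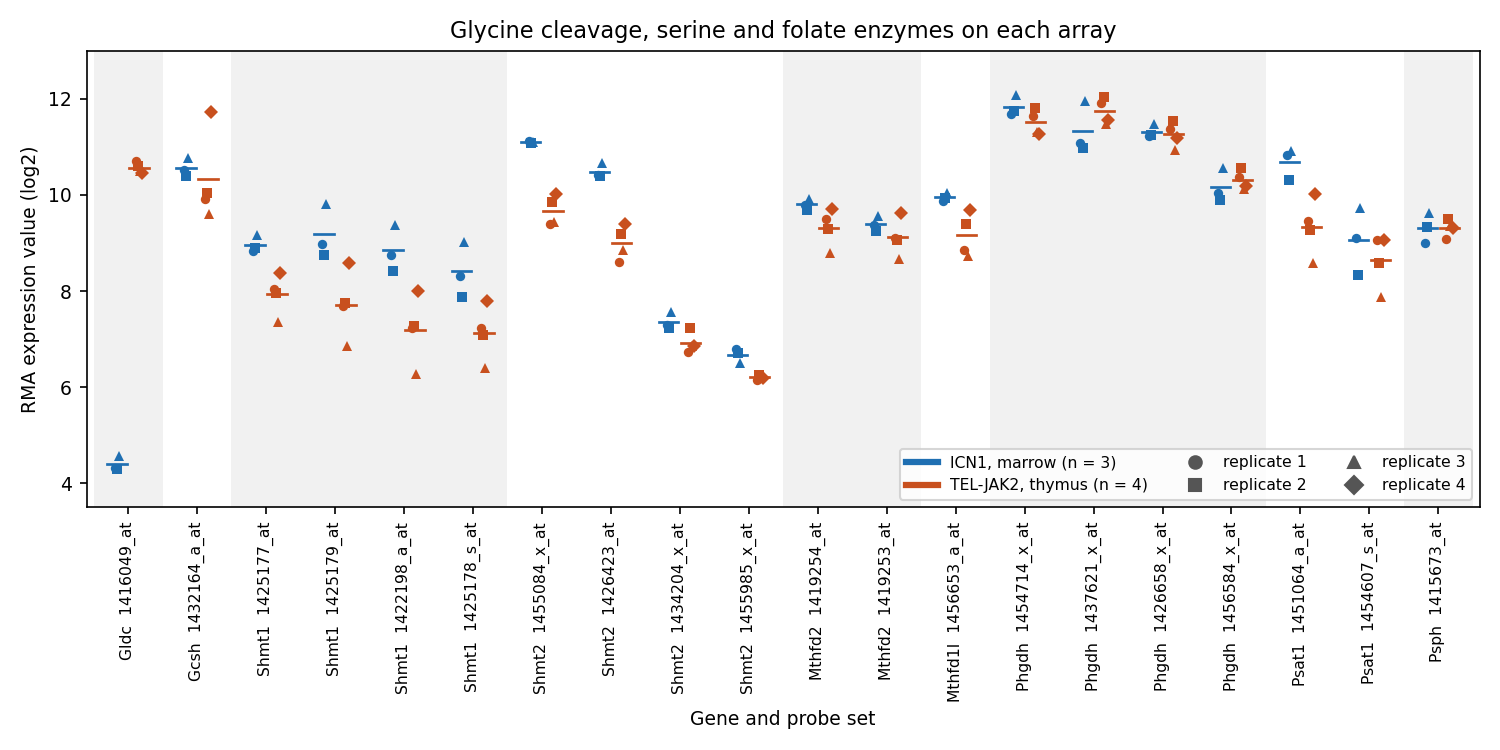
Log2 expression (vertical axis) of the 20 probe sets of 9 genes (horizontal axis) on each array, with ICN1 in blue (n = 3) and TEL-JAK2 in orange (n = 4), marker shapes for replicates and bars for group means. Gldc reads 4.29 to 4.57 in ICN1 and 10.46 to 10.70 in TEL-JAK2, while 8 of the other 19 probe sets were called lower and 0 higher.

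The other 19 probe sets, of 8 genes, did not follow Gldc: 8 were lower in TEL-JAK2, 0 were higher and 11 were not called. Across all probe sets 10.3% were called lower, 9.26% higher and 19.6% in either direction. The genes were chosen with this comparison in view, so nothing is read from the contrast of these shares. The median difference of the 19 was -0.47, against 0.04 over all probe sets. The groups did not overlap in 10 of the 19, all with the lower values in TEL-JAK2, as against 30.7% of all probe sets without overlap. The mean levels of the proliferation, erythroid and macrophage lists moved with the same contrast, and the part of these lists in the differences was not tested. The count of 8 fell to 3 without ICN1 replicate 1 or without ICN1 replicate 3, to 4 and 5 without TEL-JAK2 replicates 1 and 2, and to 2 without both ICN1 arrays that held Xist and Y-linked transcripts, a fit that leaves 1 ICN1 array and assumes that it varies like the TEL-JAK2 arrays. Scaling the arrays to equal mean level of 4 CD3 genes, hereafter CD3 centring, moved every difference by -0.62 and gave 15 lower and 0 higher.

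**Figure D2:**
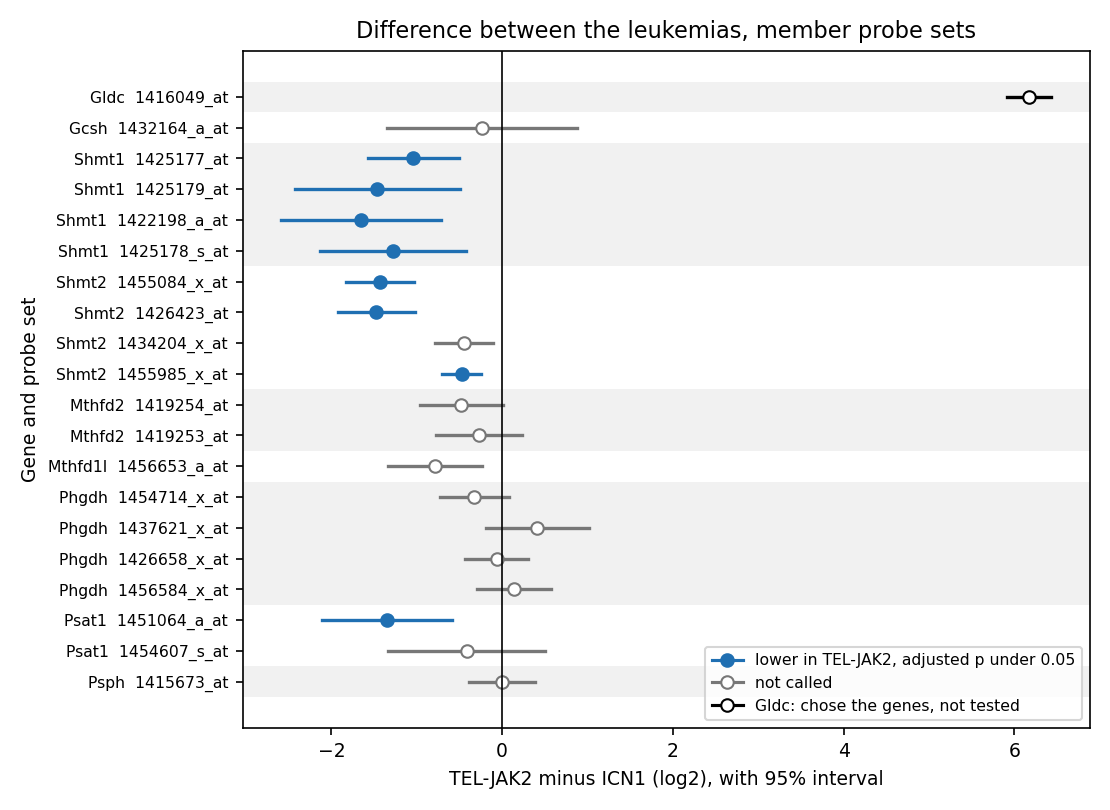
Difference TEL-JAK2 minus ICN1 (horizontal axis, log2) with its 95% interval from the limma fit for each of the 20 probe sets (vertical axis). The 8 filled blue points were called lower, open grey points were not called, and Gldc at 6.17 is drawn open in black because it chose the genes.

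Gcsh, the lipoyl carrier that GLDC loads, did not follow Gldc. Its probe set 1432164_a_at read 10.51, 10.40 and 10.76 in ICN1. In TEL-JAK2 it read 9.92, 10.04 and 9.6 in replicates 1 to 3 and 11.74 in replicate 4. Replicate 4 was thus above every ICN1 array and the other 3 TEL-JAK2 arrays were below them all. The difference of -0.23 ± 0.48 was not called (limma adjusted p = 0.791), with a 95% interval from -1.34 to 0.88. Without TEL-JAK2 replicate 4 it was -0.70 and was called (adjusted p = 0.0263).

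The partners of the system and the enzymes that attach lipoic acid were taken from a list of 8 genes, 1 probe set a gene. In that fit over 18193 genes 12.2% were lower, 11.9% higher and 24.1% called either way. Of the 8, 5 were lower and 0 higher, with a median of -1.05 against 0.04 over all genes. Dld, the dihydrolipoamide dehydrogenase of the cleavage system, went from 10.24 ± 0.23 (SD) to 9.14 ± 0.10 (SD), a difference of -1.09 ± 0.13 (adjusted p = 0.00121), although the other probe set, near background with a mean of 3.91, was not called (-0.04). Lipt2, the octanoyl transferase of lipoic acid synthesis, fell by 1.40 on the log2 scale. The iron-sulfur assembly genes Glrx5, Bola3 and Iba57, which serve lipoic acid synthase, differed by -1.55 ± 0.11, -1.44 ± 0.19 and -1.01 ± 0.13. One dim probe set of Bola3, averaging 3.46, was not called (0.03). Lias, the lipoic acid synthase itself (-0.34 ± 0.16, adjusted p = 0.164), Nfu1 (0.23 ± 0.13, 0.251) and Lipt1 (-0.06 ± 0.19, 0.866) were not called. All 5 called genes kept their calls in each fit without 1 array. Glrx5 also serves heme synthesis in red cell precursors, and the erythroid list differed as given above.

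Both serine hydroxymethyltransferases were lower in TEL-JAK2. Shmt2, the mitochondrial enzyme, was measured by 4 probe sets. Its brightest, 1455084_x_at, read 11.13, 11.08 and 11.11 in ICN1 and 9.39, 9.85, 9.43 and 10.02 in TEL-JAK2. No array overlapped, and the ICN1 arrays lay within 0.05 of each other. The difference was -1.43 ± 0.17 (2.70-fold, adjusted p = 0.00145). Probe set 1426423_at read 10.41, 10.38 and 10.66 against 8.61, 9.18, 8.86 and 9.39, a difference of -1.48 ± 0.19 (adjusted p = 0.00218). These were the strongest differences of the 19 by adjusted p, and neither lost its call without any 1 array. They were also the 2 that stayed called at an adjusted p under 0.01 and against a 1.5-fold difference. The remaining pair of Shmt2 probe sets gave smaller differences. For 1455985_x_at the difference was -0.47 ± 0.10 (adjusted p = 0.0146, and 0.0509 without ICN1 replicate 1). For 1434204_x_at it was -0.45 ± 0.15, which was not called (adjusted p = 0.0742) but was called without TEL-JAK2 replicate 2 (0.0312). Of the 4, 3 carry the suffix x, by which the maker marks possible cross-hybridization, and 1426423_at carries none.

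Shmt1, the cytosolic enzyme, was lower in all 4 of its probe sets without overlap. Probe set 1425177_at read 8.84, 8.90 and 9.17 in ICN1 and 8.04, 7.95, 7.36 and 8.37 in TEL-JAK2. The difference was -1.04 ± 0.23 (2.05-fold, adjusted p = 0.0181). Probe set 1422198_a_at read 8.74, 8.42 and 9.37 against 7.22, 7.27, 6.27 and 8.0, a difference of -1.65 ± 0.40 (adjusted p = 0.0258). In every Shmt1 probe set TEL-JAK2 replicate 3 was the lowest array and TEL-JAK2 replicate 4 the highest of its group. For 1425179_at and 1425178_s_at the differences were -1.46 ± 0.41 and -1.28 ± 0.37 (adjusted p = 0.0452 and 0.0477). The direction held in each fit without 1 array, but the calls did not. For 1425177_at the adjusted p was 0.0562 with ICN1 replicate 3 left out, past the threshold. The call of 1422198_a_at was lost when ICN1 replicate 1, ICN1 replicate 3, TEL-JAK2 replicate 1 or TEL-JAK2 replicate 2 was left out (0.0580 to 0.0759). That of 1425178_s_at was lost without any 1 of these or TEL-JAK2 replicate 3 (0.0850 to 0.125), and that of 1425179_at without any 1 array but TEL-JAK2 replicate 4 (0.0602 to 0.123).

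Past the SHMT step, the mitochondrial folate enzymes Mthfd2 and Mthfd1l lay lower in TEL-JAK2 by amounts not called in the fit over all probe sets. Mthfd2l, given below, was called lower. Mthfd2, the methylenetetrahydrofolate dehydrogenase of proliferating cells, read 9.79, 9.69 and 9.92 in ICN1 by probe set 1419254_at and 9.49, 9.29, 8.80 and 9.71 in TEL-JAK2. Replicate 4 of TEL-JAK2 overlapped the ICN1 range. The difference was -0.48 ± 0.21 (adjusted p = 0.160), and the 95% interval ran from -0.97 to 0.01. The second probe set, 1419253_at, gave -0.27 ± 0.22 (adjusted p = 0.438). Mthfd1l, which makes formate in mitochondria, read 9.88, 9.93 and 10.04 in ICN1 and 8.85, 9.39, 8.74 and 9.70 in TEL-JAK2 by 1456653_a_at. Those groups did not overlap, yet the difference of -0.79 ± 0.23 just missed the threshold (adjusted p = 0.0545). It was called without TEL-JAK2 replicate 4 (-0.96, adjusted p = 0.0144), with dim probe sets left out (0.0382), and with 1 probe set a gene (0.0496).

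Serine synthesis was split, with 1 enzyme lower in 1 of its probe sets and 2 not called. Phgdh, which commits 3-phosphoglycerate to serine, had 4 probe sets, all with the suffix x. By 1454714_x_at it read 11.67, 11.74 and 12.09 in ICN1 and 11.65, 11.82, 11.31 and 11.26 in TEL-JAK2, with overlap and a difference of -0.33 ± 0.17 (adjusted p = 0.248). By 1437621_x_at it read 11.08, 10.98 and 11.95 against 11.92, 12.03, 11.48 and 11.56, and the difference had the opposite sign (0.41 ± 0.26, adjusted p = 0.329). That probe set turned on ICN1 replicate 3, without which it was called higher (0.72, adjusted p = 0.0409). With CD3 centring its difference was -0.21. The last 2, 1426658_x_at and 1456584_x_at, gave -0.06 ± 0.16 and 0.14 ± 0.19 (adjusted p = 0.833 and 0.673). Another 2 probe sets are annotated to Phgdh together with a predicted gene, Gm8096 or Gm6756, and were left out of the counts. They gave -0.43 and -0.35 and were not called (adjusted p = 0.230 and 0.157). Copies of Phgdh that share probes can thus enter these values.

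Psat1, the transaminase that follows PHGDH, was lower by its brighter probe set. Probe set 1451064_a_at read 10.84, 10.30 and 10.92 in ICN1 and 9.47, 9.27, 8.58 and 10.03 in TEL-JAK2. The groups did not overlap, with TEL-JAK2 replicate 3 lowest and replicate 4 nearest to ICN1. The difference was -1.35 ± 0.33 (2.55-fold, adjusted p = 0.0260), and its call was lost without ICN1 replicates 1 or 3 (0.0792 and 0.0762) or TEL-JAK2 replicates 1 or 2 (0.0593 and 0.0641). The other probe set, 1454607_s_at, read 9.11, 8.34 and 9.72 against 9.05, 8.58, 7.87 and 9.07. Here the groups overlapped and the difference of -0.41 ± 0.39 was not called (adjusted p = 0.529). Psph, the phosphatase that releases serine, read 9.0, 9.33 and 9.62 in ICN1 and 9.09, 9.50, 9.35 and 9.31 in TEL-JAK2. Its difference was 0.00 ± 0.17 (adjusted p = 0.993), with a 95% interval from -0.39 to 0.39. With CD3 centring Psph was called lower (-0.63, adjusted p = 0.0383).

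Within each leukemia many of the tested probe sets, several of them from the same gene, ranked the arrays alike. TEL-JAK2 replicate 3 was the lowest array of its group in 13 of the 19 and TEL-JAK2 replicate 4 the highest in 12. TEL-JAK2 replicate 2 was the highest in 7, among them all 4 Phgdh probe sets and Psph. Among ICN1 arrays replicate 3 was the highest in 17 and replicate 2 the lowest in 13. Over the 8 genes without Gldc, 1 probe set a gene, the mean level was 10.21, 10.17 and 10.45 in ICN1. In TEL-JAK2 it was 9.49, 9.64, 9.15 and 10.02. Gldc did not take the same course, since its highest TEL-JAK2 value was in replicate 1 and its lowest in replicate 4. Proliferation genes were also lowest in TEL-JAK2 replicate 3 (9.70, against 10.37 to 10.67 in the others), and macrophage genes were likewise lowest there (6.39) and highest in replicate 4 (8.66). ICN1 went the other way: replicate 3 had the highest mean of the 8 genes but the lowest proliferation (11.95) and macrophage (8.89) levels. Whether either list contributes to the order of the arrays was not tested.

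**Figure D3:**
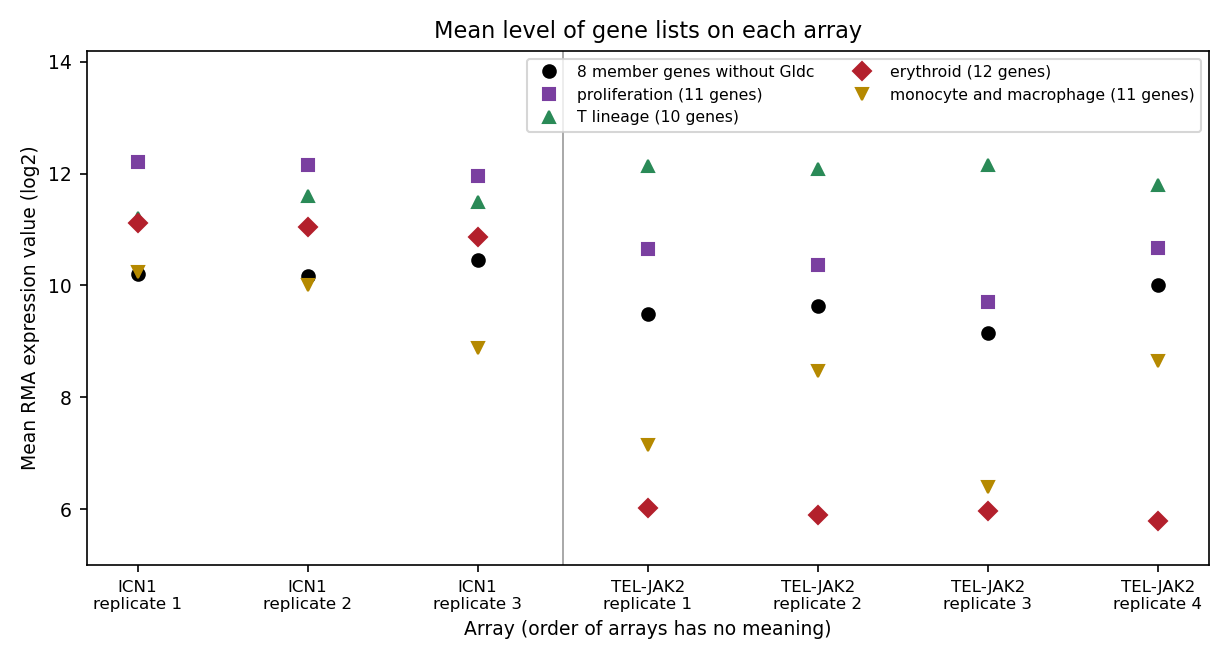
Mean log2 expression (vertical axis) on each of the 7 arrays (horizontal axis) of the 8 tested genes without Gldc and of 4 gene lists, 1 probe set a gene. The 8 genes lie between 10.17 and 10.45 in ICN1 and between 9.15 and 10.02 in TEL-JAK2, and the erythroid list falls from 10.86 or more to 6.02 or less.

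The wider pathway was examined through 7 lists, the lipoylation list included, holding 66 measured genes. Of these 26 were lower in TEL-JAK2, 1 was higher and 39 were not called, with a median of -0.23 against 0.04 over all genes. The shares over all genes were 12.2% lower and 11.9% higher. In the folate cycle 4 of 9 were lower and 0 higher, with a median of 0.07. Tyms, the thymidylate synthase, read 7.94 ± 0.60 (SD) in ICN1 and 6.02 ± 0.50 (SD) in TEL-JAK2 (-1.92 ± 0.35, adjusted p = 0.00780). Another probe set of Tyms was lower as well (-1.25), and 2 near background were not called (-0.14 and 0.01). Mthfd1, the cytosolic trifunctional enzyme, fell by 1.43 ± 0.29 on the log2 scale. Fpgs, which adds the glutamate tail that keeps folate in the cell, differed by -0.81 ± 0.14. Mthfd2l, the mitochondrial paralog of Mthfd2, differed by -1.63 ± 0.16 and averaged 4.88 in TEL-JAK2, below the array medians. Aldh1l1, Aldh1l2, Mthfs, Ftcd and Ggh were not called. Their group means lay between 4.07 and 5.62, with differences of 0.07, 0.09, 0.11, 0.10 and 0.52, and with CD3 centring all 5 turned negative. The purine enzymes that take formyl groups were lower for 2 of 3. Atic differed by -1.11 ± 0.21 and Gart by -1.16 ± 0.28, the latter not called when ICN1 replicate 1, ICN1 replicate 3 or TEL-JAK2 replicate 1 was left out (adjusted p from 0.0622 to 0.0691), and its dimmest probe set of 4 was not called (-0.38). Mtfmt, which formylates the mitochondrial initiator tRNA, was not called (-0.03 ± 0.14, adjusted p = 0.902).

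Carriers of folate, serine and glycine were lower for 7 of 11 genes and higher for 0, against 12.2% and 11.9% of all genes. The list median was -0.51. The glycine transporter Slc6a9 showed the widest difference, with 9.79, 10.26 and 10.04 in ICN1 and 5.79, 5.85, 5.80 and 5.69 in TEL-JAK2 (-4.25 ± 0.13, adjusted p = 2.00e-06), while 34.3% of all genes had groups without overlap. Slc25a38, which carries glycine into mitochondria for heme synthesis, differed by -1.49 ± 0.15. Both genes are known from red cell precursors, and the erythroid list moved with the same contrast. The mitochondrial serine carrier Sfxn1 (-1.05 ± 0.22), the reduced folate carrier Slc19a1 (-0.93 ± 0.18) and the neutral amino acid carrier Slc1a5 (-0.91 ± 0.10) were lower too, although 1 dim probe set of Slc19a1 was not called (0.12). Folr1 (-0.43 ± 0.08) and Slc1a4 (-0.51 ± 0.12) were called at group means between 4.67 and 5.46. Slc1a4 lost its call without ICN1 replicates 1 or 2 (adjusted p = 0.0580 and 0.0660). Of its other probe sets, 1 was not called (-0.25) and 1 was lower (-0.78). Slc46a1, Folr2, Slc38a2 and the mitochondrial folate carrier Slc25a32 were not called (0.13, 0.28, 0.36 and -0.24). For Slc38a2, 2 dimmer probe sets were called higher (1.04 and 0.85).

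Among other serine and glycine enzymes 1 of 9 was higher, 1 lower and 7 not called, with a median of 0.27. These counts were near the shares over all genes, 11.9% higher and 12.2% lower. The higher one was Pipox, the peroxisomal sarcosine oxidase, whose product is glycine, at 4.91 ± 0.05 (SD) in ICN1 and 6.99 ± 0.65 (SD) in TEL-JAK2 (2.08 ± 0.33, adjusted p = 0.00419). By the brightest probe set of each gene, it was the only higher one of the 66. The lower one was Alas2, the erythroid enzyme that joins glycine to succinyl-CoA in heme synthesis. It read 13.52, 13.80 and 13.14 in ICN1 and 6.61, 9.35, 5.84 and 7.78 in TEL-JAK2 (-6.09 ± 0.76, adjusted p = 0.00164). Alas1, the form of other cells, was not called (0.23 ± 0.12, adjusted p = 0.230). Nor were Gamt, which just missed the threshold (0.58, adjusted p = 0.0509), and Gatm, with the opposite sign (-0.75). Srr was not called by its brightest probe set (0.49), but 1 of its 6 probe sets was called higher (0.94). In the methionine cycle 1 of 10 genes was lower, the S-adenosylhomocysteine hydrolase Ahcy (-1.21 ± 0.23, adjusted p = 0.00876). That count was near the 12.2% of all genes called lower, and the list median was -0.05. Of the 9 not called, Mat2b differed by 0.00 and Cbs by 0.02.

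The transcription factor ATF4 induces the serine synthesis genes when amino acids run short, and Atf4 with its targets formed a list of 16 measured genes. Of these 6 were lower, 0 higher and 10 not called, with a median of -0.27. Among all genes 12.2% were lower and 11.9% higher. Asns, the asparagine synthetase, read 10.37, 10.64 and 9.55 in ICN1 and 5.27, 6.88, 6.17 and 6.50 in TEL-JAK2 (-3.98 ± 0.41, adjusted p = 0.000773). Pck2, the mitochondrial phosphoenolpyruvate carboxykinase, was 14.6-fold lower (-3.86 ± 0.27). The amino acid carrier chain Slc3a2 (-1.46 ± 0.21) and the tRNA synthetase genes Aars (-0.73 ± 0.13) and Gars (-0.72 ± 0.12) were lower. Atf4 itself was lower by its brightest probe set (-0.86 ± 0.11, adjusted p = 0.00200), while 2 dimmer ones were not called (0.14 and -0.32). The stress targets Trib3 (0.15 ± 0.31) and Slc7a11 (-0.09 ± 0.28) were not called (adjusted p = 0.782 and 0.847), with group means between 4.69 and 6.19.

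**Figure D4:**
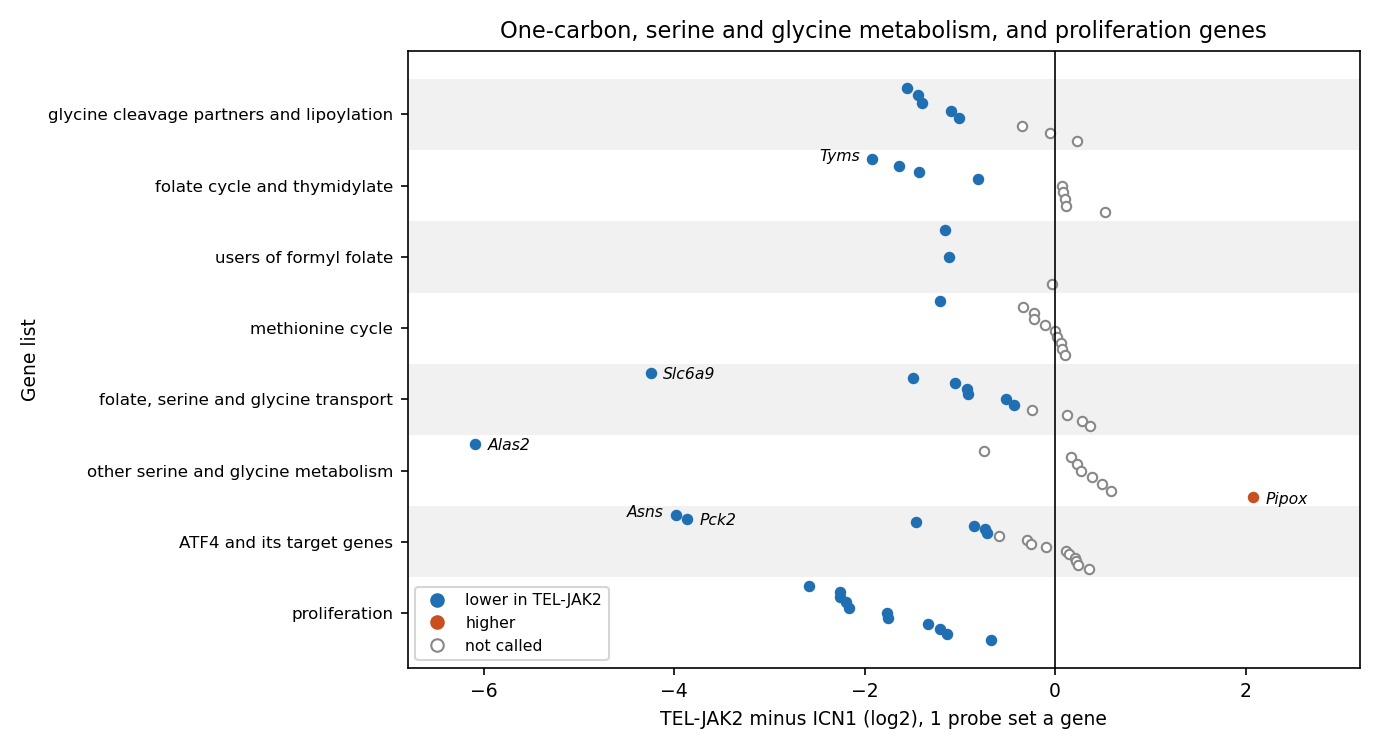
Difference TEL-JAK2 minus ICN1 (horizontal axis, log2) of each measured gene in 7 pathway lists and the proliferation list (vertical axis), 1 probe set a gene, filled where limma called it. Blue points for lower genes number 26 in the pathway lists, and the single orange point is Pipox at 2.08.

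Proliferation genes, which need thymidylate and purines for DNA synthesis, were lower for 11 of 11, also in every fit without 1 array. The share of all genes called lower was 12.2%. Against a 1.5-fold difference, Top2a, Pcna, Mcm2, Mcm5 and Rrm2 were not called. Tk1, the thymidine kinase, differed by -2.58 ± 0.29, Mki67 by -2.26 ± 0.28, Ccna2 by -2.20 ± 0.28 and Birc5 by -2.17 ± 0.27. The SHMT, thymidylate and purine enzymes thus lay lower in the same arrays as these genes, and the part of proliferation in their differences was not tested.

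Gldc lies on mouse chromosome 19, where 13 protein-coding genes separate it from Jak2 in the RefSeq gene table. The 10 nearest measured genes on each side differed by -1.68 to 0.86, against 6.17 for Gldc. Of the 20, 1 was higher, 2 were lower and 17 were not called, and the median difference was 0.16. Over all genes 11.9% were higher and 12.2% lower, so nothing is read from the count. Ranbp6, a nuclear import protein, was higher (0.62 ± 0.18, adjusted p = 0.0469). Sgms1, a sphingomyelin synthase, and Minpp1, an inositol polyphosphate phosphatase, were lower (-0.66 ± 0.14 and -1.68 ± 0.12). The nearest genes, Uhrf2 on one side and Mbl2 on the other, differed by 0.22 ± 0.16 and 0.25 ± 0.19 and were not called. Jak2, by the brighter of its 2 probe sets, read 9.92, 9.09 and 8.83 in ICN1 and 9.72, 9.81, 9.95 and 9.72 in TEL-JAK2, with overlap. The difference of 0.52 ± 0.25 was not called (adjusted p = 0.179). Whether that probe set detects the fusion transcript was not tested.

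**Figure D5:**
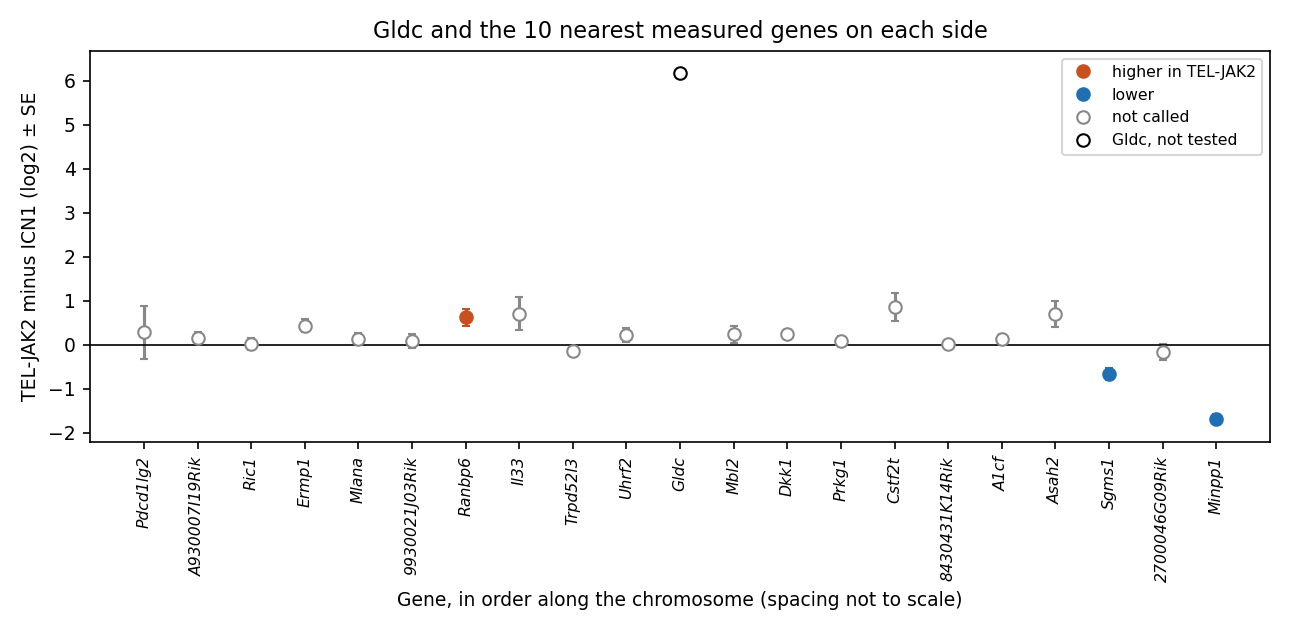
Difference TEL-JAK2 minus ICN1 (vertical axis, log2, bars are the SE) of Gldc and the 10 nearest measured genes on each side in chromosomal order (horizontal axis). Gldc stands at 6.17 and its neighbours lie between -1.68 and 0.86.

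The genes whose profile over the 7 arrays was most like that of Gldc were ranked by the root mean square difference of log2 values, each gene centred on its mean over the arrays. Enah, a regulator of actin filaments, came first (0.20), then Tmem108 (0.38), Ctla4, an inhibitory receptor of T cells (0.43), Sfrp2, a secreted WNT antagonist (0.46), and Mdfic (0.46). Each was low in the 3 ICN1 arrays and high in the 4 TEL-JAK2 arrays, Enah at 3.60 to 3.80 and 9.39 to 10.10. The measure includes the size of the step between the groups, so it favours genes with a step near that of Gldc. No gene of the serine, glycine or folate lists was among these 5. The only one of them called higher, Pipox, differed by 2.08, so nothing is read from their absence.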

How the data were processed

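The deposited values are log2 expression by RMA, per the submitters' processing notes. RMA corrects background, normalizes across arrays and summarizes probes, so a difference in total RNA cannot be read from it. The version of RMA and its settings: not given in the sources used here. No further scaling was applied. The range of values and array medians fits log2. No detection calls entered the counts. The number of arrays limits the precision. Replicates were numbered in accession order.

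Of 45037 probe sets, 34945 had 1 gene symbol in the platform annotation, 932 several and 9160 none. The fit was limma 3.58.1 (R 4.3.3, lmFit and eBayes, two-sided) on all 7 arrays. The 10 genes were tested on all probe sets, and the lists on the brightest probe set of each of 18193 genes by mean over the arrays. Adjusted p-values are Benjamini-Hochberg over each table. The members, lists and rules were chosen with earlier results of these data known. Named list genes are up to 4 called genes with the smallest and up to 2 others with the largest adjusted p per list, and all genes behind a count of 5 or fewer in the pathway and proliferation lists. Marker lists are given by counts and levels, not by their 3 brightest genes as the rule had it. Further genes of the transport, ATF4 and glycine lists, and the named macrophage and epithelium genes, were picked once their values were known, as were the printed start regions and motifs. Names and gene order come from RefSeq, GRCm38.p6. Scripts were tested on simulated data. Alternatives were other probe set rules, filters, scalings, variance settings, thresholds, and arrays left out. Figures were drawn with matplotlib 3.10.9.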

Additional observations from a re-analysis of the deposited data

Results flagged for a closer look

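Among TEL-JAK2 arrays, 1 array stood apart from the other 3 in 6 of the 115 groups of 4 values examined (the probe sets of the 10 genes, the list genes and the mean levels of the lists), where chance gives about 1 in 20. None was a probe set of the 10 genes. Atf4 was lower in replicate 1 (10.29, against 10.61 to 10.65), with a gap of 0.90 of the whole range. Slc1a5 was lower in replicate 1 as well (9.24, against 9.39 to 9.40, gap 0.92). Birc5 was lower in replicate 3 (9.23, against 10.12 to 10.25, gap 0.87), Mat2b in replicate 4 (10.11, against 10.32 to 10.34, gap 0.90) and Dmgdh in replicate 2 (4.69, against 5.09 to 5.15, gap 0.88). The mean level of stromal and endothelial genes was higher in replicate 4 (6.76, against 5.11 to 5.15, gap 0.97), the array with the highest Gcsh value.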

How the results depend on the processing

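The 19 tested probe sets gave 8 lower and 0 higher. The lower count was 4 with 1 probe set a gene and 3 with probe sets averaged per gene, both of 8 genes, and 3 of 6 without cross-hybridizing probe sets. It was 15 with CD3 centring and 2 at an adjusted p under 0.01, against a 1.5-fold difference, and without ICN1 replicates 1 and 2, where the lone ICN1 array is assumed to vary like TEL-JAK2. Without 1 array it ran from 3 to 10, and the higher count from 0 to 1. The 26 lower genes of the pathway lists became 47 with CD3 centring and 12 against a 1.5-fold difference (24 to 27 without 1 array). The 1 higher gene became 4 with the mean of probe sets, 2 with variance trend or array weights, and, in the fit with 1 ICN1 array, 0 without ICN1 replicates 1 and 2, where the Pipox difference was again 2.08 (1 to 2 without 1 array). Over all genes, CD3 centring left 6.45% of calls higher, against 49.4%, and moved the median gene to -0.58. Of the 19, Psph, Gcsh and 3 Phgdh probe sets, all uncalled, turned sign. Psph read 0.0085, 0.0041 and 0.013 with quantile, median and cyclic loess scaling, 0.059 with array weights, and -0.16 to 0.15 without 1 array. For Phgdh, 1437621_x_at read -0.21 and 1456584_x_at -0.49 with CD3 centring, and -0.20 and -0.26 without ICN1 replicates 1 and 2. Without 1 array the latter ran from -0.00013 to 0.34, 1426658_x_at from -0.16 to 0.046 and Gcsh from -0.70 to 0.010. The causes were not tested. No paired analysis was possible because the labels give the groups no shared replicate numbers.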
